A study of Mus musculus with 4 samples.

Results

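Resting Th2 cells differentiated with SH-2251, a thioamide-related small compound, were compared with resting Th2 cells differentiated without it. The comparison is the SH-2251 array minus the control array, and it uses 2 of the 4 arrays of the series, with 1 array per side. Of 18535 genes that could be named on the arrays, 12681 entered it, those whose probe gave a signal well above background on either array or on both. The other 2 arrays came from the same kinds of culture restimulated through the T cell receptor for 4 h, and their values stand beside the resting values where they bear on them.

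The cells were splenic CD4 T cells of female C57BL/6J mice, selected magnetically. Both resting groups received plate-bound anti-TCR-β (3 µg/ml) and anti-CD28 (1 µg/ml) for 2 days. IL-2 was present at 2.5 ng/ml, IL-4 at 10 ng/ml. The cells were then kept for 3 more days in IL-2 and IL-4 without receptor stimulation. The control group had no SH-2251 in either phase. For the treated group the sample labels give 1 µM in the first phase and 1 mM in the second, and both figures differ from the dose in the study's methods, so the dose behind these arrays is uncertain. The labels do not mention the anti-IFN-γ antibody or the selection of naïve cells that the study's methods describe, and give no age of the mice. Nothing in them states how many mice or cultures stand behind an array, so each difference is that of a single pair of RNA samples and no test was possible.

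Th2 cells are the helper T cells of type 2 immunity. The transcription factor GATA-3, induced by IL-4 through STAT6, directs them, and they secrete IL-4, IL-5 and IL-13. IL-5 is the growth and survival factor of eosinophils, and the zinc-finger repressor Gfi1 takes part in the growth of Th2 cells and in their IL-5 production. The comparison addresses which transcripts differ when Th2 cells are made in the presence of SH-2251, before any restimulation.

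The 75th percentile of the probe intensities was 561 units on the resting control array and 614 on the resting SH-2251 array, and 56.7% and 56.0% of their probes were well above background. All values below are log2 signals relative to that percentile of the same array, so 0 means as bright as the 75th percentile probe and a difference of 1 means 2-fold. All 10 markers of T cells were above background on both arrays, among them Cd3d at 6.97 in control and 6.93 with SH-2251 and Thy1 at 7.78 and 7.71. Gata3 was at 5.39 in control and 5.22 with SH-2251, and Il4 at 4.69 and 4.59, so the genes that define Th2 cells were present on both sides. In RNA from whole cultures, fewer cells of a type and less RNA per cell cannot be told apart.

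Of the 12681 genes, 368 (2.9%) were lower by 2-fold or more in the treated cells. Another 287 (2.26%) were higher by 2-fold or more. At least 4-fold differences were seen in 68 lower and 49 higher genes, and at least 8-fold differences in 17 lower and 9 higher genes. Most transcripts differed little, since 84.8% of the 11871 genes above background on both arrays lay within 0.5 of 0. The middle 50% of these lay between -0.24 and 0.15, with a median of -0.05. The scanner software's own error estimate, given below as the technical SD, had a median of 0.204 for a difference and covers error within the arrays only. For bright spots that estimate is close to a constant share of the signal and so hardly varies from gene to gene.

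**Figure D1:**
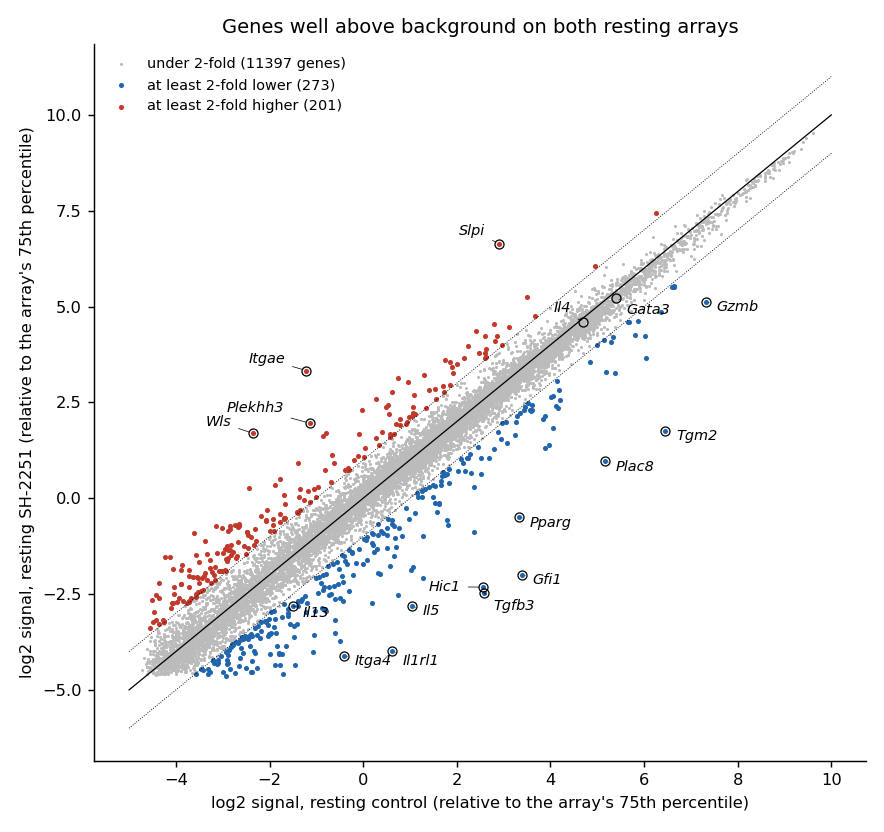
Log2 signal of each gene on the resting control array (x axis) and on the resting SH-2251 array (y axis), both relative to the array's 75th percentile, for the 11871 genes above background on both. The solid line marks equal signal and the dotted lines 2-fold differences. Of these genes 273 lie below and 201 above the dotted lines, with Gfi1, Tgfb3 and Hic1 far below and Itgae, Wls and Slpi far above, while Il4 and Gata3 lie on the diagonal.

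Gfi1 was at 3.38 in control and -2.01 with SH-2251. No gene measured on both arrays had a larger decrease than this -5.39 (technical SD 0.210), or 41.9-fold. Il5 was at 1.04 in control and -2.82 in treated cells, which differ by -3.86 (technical SD 0.221) or 14.5-fold. The other Th2 cytokines of the same gene cluster did not show a difference of this size. Il13 was at -1.49 in control and -2.81 in treated cells, a difference of -1.32, and Il4 differed by -0.10, within its technical SD of 0.204. Gata3 differed by -0.17, within the same technical SD. Ccr3, an eotaxin receptor, was dim on both arrays, at -3.62 and -4.19, and its difference of -0.56 had a technical SD of 0.338.

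The sequences that precede the start sites of Gfi1 and Il5, the genes under study, follow, with those of Wls and Slpi, which stood at the other end of the comparison. They are RefSeq promoter sequences of assembly GRCm38.p6, 250 bases up to the start site, written 5′ to 3′ on the strand of the gene. Gfi1 has 2 listed start sites, at chr5:107725806-107726055 and chr5:107724344-107724593 on the minus strand. Il5 lies at chr11:53720544-53720793 on the plus strand, Wls at chr3:159839400-159839649 on the plus strand and Slpi at chr2:164356508-164356757 on the minus strand. Capitals mark a hexamer of the GATA type, which is AGATAA or AGATAG, and equally TGATAA or TGATAG, on either strand.
Gfi1, start site 1: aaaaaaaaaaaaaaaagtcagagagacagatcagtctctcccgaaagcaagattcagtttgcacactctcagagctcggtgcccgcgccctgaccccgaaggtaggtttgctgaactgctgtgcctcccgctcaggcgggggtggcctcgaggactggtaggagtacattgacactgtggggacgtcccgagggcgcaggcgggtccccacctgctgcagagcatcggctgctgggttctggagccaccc
Gfi1, start site 2: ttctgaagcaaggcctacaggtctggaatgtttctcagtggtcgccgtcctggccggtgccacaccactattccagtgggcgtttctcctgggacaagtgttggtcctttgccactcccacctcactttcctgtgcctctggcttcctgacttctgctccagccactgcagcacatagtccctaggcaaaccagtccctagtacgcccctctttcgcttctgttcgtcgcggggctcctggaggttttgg
Il5: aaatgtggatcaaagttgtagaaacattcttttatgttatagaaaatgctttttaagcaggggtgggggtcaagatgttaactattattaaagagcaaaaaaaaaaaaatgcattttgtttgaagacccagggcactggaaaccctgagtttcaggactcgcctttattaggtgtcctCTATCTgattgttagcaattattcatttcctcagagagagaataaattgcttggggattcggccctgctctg
Wls: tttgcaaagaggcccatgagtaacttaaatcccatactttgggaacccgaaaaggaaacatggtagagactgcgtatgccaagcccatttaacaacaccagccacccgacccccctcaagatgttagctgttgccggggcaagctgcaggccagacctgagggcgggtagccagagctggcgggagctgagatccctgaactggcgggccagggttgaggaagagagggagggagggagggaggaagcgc
Slpi: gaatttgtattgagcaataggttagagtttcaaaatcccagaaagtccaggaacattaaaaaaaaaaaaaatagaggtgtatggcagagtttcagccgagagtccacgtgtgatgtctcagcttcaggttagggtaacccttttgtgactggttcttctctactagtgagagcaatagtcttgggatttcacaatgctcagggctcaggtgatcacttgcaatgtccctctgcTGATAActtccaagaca
The Il5 window held 1 such hexamer, beginning at position -72 from the start site, and the Slpi window held 1, beginning at -17. None was found in the windows of Gfi1 or Wls. In windows that also take in 50 bases after the start site, a GATA hexamer stood in 19.8% of the promoters of all genes compared, in 26.6% of those of genes at least 2-fold lower and in 20.3% of those of genes at least 2-fold higher. These hexamers are rich in A and T. The median GC content of the promoters was 54.7% in the lower, 59.7% in the higher and 60.3% in the other genes compared. The part of base composition in the shares was not tested. The letters AATCAC, the core of the site that Gfi1 is known to bind, stood in 8.61% of all promoters, in 10.4% of the lower and in 10.8% of the higher class on either strand.

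Beyond Gfi1 and Il5, the 15 largest decreases included several genes of T cell effector function and tissue homing. Tgfb3, a ligand of the TGF-β family, was at 2.59 in control and -2.48 in treated cells and so differed by -5.07 (technical SD 0.218). Il1rl1 encodes the receptor for IL-33, the alarmin to which Th2 cells respond. Its signal was 0.62 in control and -3.99 in treated cells, a difference of -4.61, but a second probe, at -3.90 in control and not above background with SH-2251, gave only a bound of -0.75. The other probe of Il1rl1 was not above background on either array. Pparg, a lipid-activated nuclear receptor that supports Th2 effector function, was at 3.33 in control and -0.50 with SH-2251. Itga4, the α4 integrin chain that binds VCAM-1 and MAdCAM-1, was at -0.41 and -4.11, a difference of -3.70. The other 2 probes of Itga4 gave bounds of 0.00 and -1.12, so the size of its decrease rests on the brightest probe.

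Among the rest of the 15, the differences ran from -4.88 for Hic1 to -2.93 for Patl2. Hic1, a zinc-finger transcriptional repressor, was at 2.56 in control and -2.32 with SH-2251. Tgm2, a transglutaminase, was at 6.46 in control and 1.75 with SH-2251, and its other 2 probes gave -4.33 and -4.43 beside the -4.71 of the first. Plac8, which encodes a small cysteine-rich protein, was at 5.16 and 0.96. Receptors for metabolites and acidity were in the group too. Ffar2, a receptor for short-chain fatty acids, differed by -3.36 and Gpr65, a proton-sensing receptor, by -3.28. Kremen2, a co-receptor of the Wnt antagonists of the Dickkopf family, differed by -3.27, Ccdc33 by -3.23 and Grtp1 by -2.93.

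Itgae had the largest increase among genes measured on both arrays. It encodes the αE chain of CD103, which pairs with β7 integrin and binds E-cadherin, and was at -1.21 in control and 3.33 in treated cells and so differed by 4.54 (technical SD 0.206). Wls, the carrier that brings Wnt proteins to the cell surface, was at -2.36 and 1.70. Slpi, a secreted inhibitor of leukocyte proteases, was at 2.90 and 6.64, well above background on both arrays.

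The remaining 12 of the 15 largest increases lay between 2.30 and 3.11. They were Plekhh3 (3.11), Rassf4 (2.71), 4930550L24Rik (2.70), Rtn1 (2.69), Tcea3 (2.60), Cox6a2 (2.48), Mcoln2 (2.46), Vangl1 (2.43), Anxa1 (2.39), Ifi211 (2.35), Maged1 (2.32) and Cdkn2b (2.30). Anxa1, a phospholipid-binding protein that dampens inflammation, was at 0.74 in control and 3.13 with SH-2251. Cdkn2b, an inhibitor of cyclin-dependent kinases, was at -1.39 and 0.91. Mcoln2 encodes a cation channel of endosomes and lysosomes, and was at -0.85 and 1.61.

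**Figure D2:**
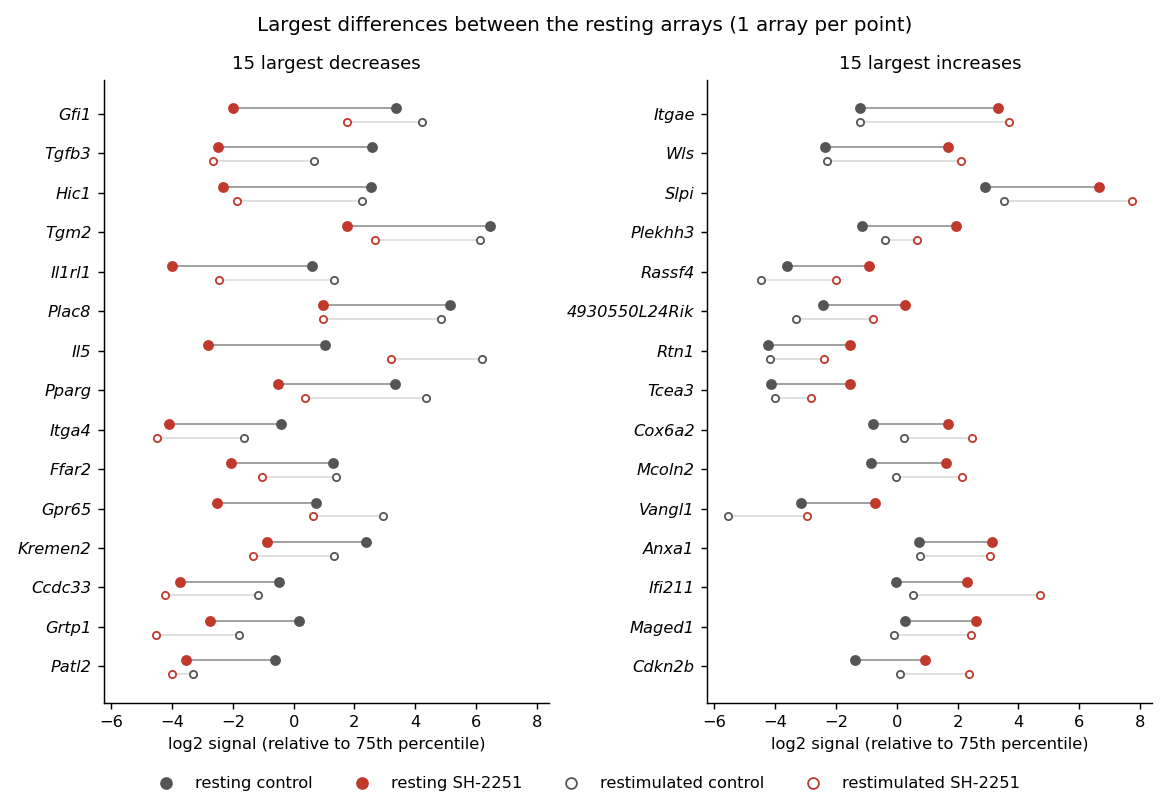
Log2 signal relative to the array's 75th percentile (x axis) of the 15 genes with the largest decreases (left) and the 15 with the largest increases (right) among those above background on both resting arrays. Filled points are the resting arrays, grey for control and red for SH-2251, and open points the restimulated arrays, where a point may lie below background (Vangl1 in restimulated control cells). The gap is narrower after restimulation for 14 of the 15 decreases, most visibly for Gfi1 and Patl2, and for 10 of the 15 increases, and it is wider for Ifi211.

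Another 810 genes were above background on only 1 of the 2 arrays, and for these a difference is a bound. The bound uses the dim array's own signal or, if higher, that array's lowest signal well above background. It does not allow for technical error, so a fold given as at least is no strict limit. The technical SD was 0.394 for Ccr10, 1.44 for Muc13 and 1.45 for Map2. The largest bound was that of Ccr10, the receptor for the skin and mucosal chemokines CCL27 and CCL28. Ccr10 was not well above background in control, at -4.95, and was at 1.67 with SH-2251, so it was at least 87.6-fold higher. Gcnt1, the core 2 enzyme that builds selectin ligands, was at least 25.3-fold higher by its brightest probe. Its other 2 probes gave bounds of 2.30 and 2.63 on the log2 scale, and the mean of all Gcnt1 probes gave 3.20. The magnesium channel gene Trpm6 was at least 21.8-fold higher. Cubn and Map2 were at least 11.4-fold and 9.17-fold higher. In the other direction, Eml1, which encodes a microtubule-binding protein, was at least 24.0-fold lower, and the transmembrane mucin gene Muc13 at least 23.4-fold lower. Hrc, Grik2 and Perm1 followed with bounds of 9.52-fold, 8.40-fold and 5.61-fold lower. Signal with SH-2251 was not well above background for any of these 5 genes.

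The effector genes of Th2 cells were mostly lower, but not all. Of 12 compared, 6 were lower by 2-fold or more and 1 was higher by that margin, with a median of -0.81 beside -0.06 over all genes compared. Of all genes, 2.9% were lower and 2.26% higher by that margin. The 6 include Il5, Il13 and Il1rl1, and the list was written with earlier results known, so its count is no independent evidence of a direction. After restimulation 16 were compared, of which 4 were at least 2-fold lower and 2 higher, with a median of -0.12. Il10, which encodes a regulatory cytokine, was at 4.11 in control and 2.40 in treated cells, a difference of -1.71. The chemokine gene Ccl17 and the epidermal growth factor family gene Areg gave bounds of -1.17 and -1.01. The exception was Il31, an itch-inducing cytokine of Th2 cells, which was at -2.85 in control and -0.71 in treated cells, a difference of 2.14. Without the genes that gave bounds, the median of the list was -0.58.

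Around the Th2 cytokine cluster itself, 11 of the 12 genes compared were lower, and Il5 and Il13 were the ones past 2-fold. The median was -0.24, and 57.4% of all genes above background on both arrays were lower. With normexp, another background correction, Il13 was at -0.90 and so under 2-fold. Rad50, a DNA repair gene that lies between Il5 and Il13, was at 1.8 in control and 1.03 in treated cells, a difference of -0.77. Of 21 factors that act in Th2 cells, 3 were at least 2-fold lower, which were Gfi1, Pparg and Maf. Maf, an activator of Il4 and Il10, was at 3.60 in control and 2.43 with SH-2251. Stat6 differed by -0.20 and Tcf7 by 0.57, so most of the list lay well inside the 2-fold limits. Among 17 factors of other helper lineages, Ahr was lower by 2.40-fold and Ikzf2, which encodes Helios, higher by 2.39-fold. With normexp both were under 2-fold, at log2 differences of -0.77 for Ahr and 0.49 for Ikzf2. The other probes of Ikzf2 were not above background on either array. Tbx21, the Th1 regulator, was at 0.41 and -0.43 and Foxp3, the factor of regulatory T cells, at -3.84 and -3.74. Of 12 cytokine genes of other lineages, Tgfb3 and Il21 (a bound of -1.64) were at least 2-fold lower and none was at least 2-fold higher.

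Genes linked to Gfi1 went both ways. The list held Gfi1 with its corepressors and published targets, and of 17 compared 4 were lower and 1 higher by 2-fold or more, with a median of 0.05. Zbtb32, a repressor of T cell cytokine genes, was at 1.28 in control and -1.0 with SH-2251. Socs3, a feedback inhibitor of cytokine signalling, was at 6.35 and 4.87, and Irf8 at 2.51 and 1.05. Id3, an inhibitor of E proteins, was at 0.50 and 2.39, a difference of 1.89. The enzymes that Gfi1 recruits, Kdm1a, Ehmt2 and Hdac3, differed by -0.09, 0.05 and -0.09. Wider lists of histone-modifying genes had few or no members past 2-fold. Of all genes compared 5.17% were past it, and lists of this size would hold few at that share. None of 41 histone methylation genes reached 2-fold, their differences ran from -0.64 to 0.57, and of 25 histone acetylation genes only the acetyltransferase gene Kat6b did, at -1.10.

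Of the receptors for cytokines 12% were past 2-fold and of those for chemokines 23.5%, beside 5.17% of all genes compared. Of 25 cytokine receptors, only Il1rl1 and Ifngr1 were lower by 2-fold or more and only Il1r1 was higher by that margin. Ifngr1, a chain of the interferon-γ receptor, was at 5.35 in control and 4.21 with SH-2251, and Il1r1, the IL-1 receptor, at -2.89 and -1.57. The receptor chains for the cytokines in the medium were at 7.31 and 7.20 for Il4ra and 7.06 and 6.24 for Il2rb. Of 17 chemokine receptors, 14 were lower, with 3 at least 2-fold lower, among them Cxcr2 at -1.71 and Cxcr6 at -1.04. Their median of -0.49 lay below the -0.06 of all genes, with Ccr10 as the only member at least 2-fold higher.

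Adhesion and homing genes differed in both directions. Of all genes compared, 2.9% were lower and 2.26% higher by 2-fold or more. Among 17 integrin genes, Itga4 and Itgae were the only members past 2-fold, at opposite ends, and Itgb7, the chain with which both of their products can pair, differed by -0.12 from 6.62 to 6.50. Enzymes that build selectin ligands were higher on balance. Of 17 genes, 4 were at least 2-fold higher and 1 lower, with a median of 0.36 beside -0.06 over all genes compared. Gcnt1, among the 4, gave a bound. Fut7, a fucosyltransferase of selectin ligands, was at 2.61 in control and 4.23 with SH-2251, and Fut4 at -1.88 and 0.34. B4galt1, a galactosyltransferase, was at 2.62 and 3.69, although the mean of all its probes gave a difference of 0.69. Chst2, a sulfotransferase, was at -3.10 and -4.31. Of 21 genes of lymph node egress and quiescence, only Klf4 reached 2-fold, with a difference of 1.18, and S1pr1, the receptor needed to leave lymph nodes, differed by -0.63.

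Interferon-stimulated genes were mostly lower. Of 25 compared, 21 were lower and 8 at least 2-fold lower, where 2.9% of all genes were. The median was -0.43, beside -0.06 over all genes. The antiviral gene Rsad2 was at -2.39 in control and -4.53 with SH-2251, and Usp18, a negative regulator of interferon signalling, at -0.49 and -2.60. Isg15, a ubiquitin-like modifier, was at 0.69 and -1.28, and Oas1a and Rtp4 differed by -1.94 and -1.52, with a bound of -2.10 for Oasl1. The single member at least 2-fold higher was Iigp1, a GTPase induced by interferons, with a difference of 1.16. In the related HIN-200 family, only 3 of 8 genes on the array were above background, and 2 of them were higher, Ifi211 by 2.35 and Ifi204 by 2.26. These genes are similar in sequence and their probes may detect each other's transcripts.

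Cytotoxic and inhibitory molecules followed no common direction. Of 14 cytotoxic granule genes, Gzmb and Gzma were at least 2-fold lower. Gzmb, granzyme B, was at 7.31 in control and 5.12 with SH-2251, and Gzma, granzyme A, at 6.01 and 4.23. Among 18 checkpoint and costimulatory receptors, Ctla4 (-1.34) and Pdcd1 (-1.10) were at least 2-fold lower. Havcr2, which encodes the inhibitory receptor TIM-3, was at -2.95 in control and -1.33 with SH-2251. No member of a list of 24 TNF family ligands and receptors reached 2-fold, where 5.17% of all genes compared did.

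T cell receptor signalling genes were mostly lower by small amounts. Of 24 members, 20 were lower, 10 of them by more than the technical SD, and 1 was higher by that margin, with a median of -0.14. Over all genes above background on both arrays, 57.4% were lower, and the median was -0.05. By more than the technical SD, 27.4% of these were lower and 18.9% higher. Of all genes compared, 5.17% were past 2-fold. None of the members of the receptor complex and its proximal signalling reached 2-fold, and the lowest difference was -0.82, for the kinase gene Tec. Downstream, 4 of 25 immediate-early and activation genes were at least 2-fold lower, which were Fosl1 (-1.54), Spry4 (a bound of -1.33), Fos (-1.23) and Egr2 (-1.19), and Dusp4, a phosphatase for MAP kinases, was higher by 1.01. Of 22 NF-κB genes none reached 2-fold. Of 18 genes of STAT feedback, Socs3 alone did. Among 16 genes of the Bcl2 family, pro-apoptotic Bcl2l11 (BIM) was higher by 1.03 and Bik lower, at -1.10, with the mean of all probes giving 0.63 for Bcl2l11.

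Genes of the TGF-β and retinoic acid pathways are shown here because Tgfb3, Hic1 and Tgm2 were among the largest decreases. Of all genes compared, 2.9% were lower and 2.26% higher by 2-fold or more. Of 24 TGF-β ligands, receptors and Smads, Tgfb3 was the only one at least 2-fold lower, and Acvr2a (a bound of 1.15), Acvr1 (1.04) and Tgif1 (1.01) were at least 2-fold higher. These 3 were dim, and with normexp they were under 2-fold, at 0.40, 0.56 and 0.46. The other probe of Acvr2a was not above background on either array. The receptor gene Tgfbr2 was at 3.62 in control and 2.90 with SH-2251, and the signal transducer Smad3 at 1.25 and 0.66. Of 16 genes of the retinoic acid pathway, 4 were at least 2-fold lower. Beside Hic1 and Tgm2 these were Dhrs3, a retinal reductase induced by retinoic acid, at -0.69 and -2.49, and Asb2 at 3.88 and 2.15. Rxra, a shared partner of nuclear receptors, was at 1.06 and 2.23, and Rdh10, which makes retinal, at 0.79 and 1.91. The list was written with Hic1 and Tgm2 known to differ, so its count is no independent evidence of a direction.

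Genes of a list of PPAR-γ and lipid handling went both ways. Of 19 compared, 3 were lower, among them Pparg itself, and 2 higher by 2-fold or more, with a median of -0.09. Of all genes compared, 2.9% were lower and 2.26% higher by that margin. Plin2, which coats lipid droplets, was at 3.83 in control and 2.07 with SH-2251, and Angptl4, an inhibitor of lipoprotein lipase, at 3.60 and 2.29. The fatty acid carrier gene Fabp4, by contrast, gave a bound of 2.49. Cholesterol and fatty acid synthesis genes were lower without exception, though none by 2-fold. All 24 compared were lower, between -0.66 for Insig1 and -0.11, with a median of -0.40, and 19 of the 24 were lower by more than their technical SD. Over all 11871 genes above background on both arrays, 57.4% were lower and 27.4% were lower by more than their technical SD.

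Other metabolic lists were also lower by small amounts. Of 28 glycolysis and hypoxia genes, 27 were lower, with a median of -0.32, and 21 by more than the technical SD. Hilpda, a lipid droplet protein induced by hypoxia, was at 4.14 in control and 3.06 with SH-2251, and the glucose transporter gene Slc2a3 at 5.65 and 4.61. Of 26 respiratory chain genes, 25 were lower, but the median was -0.15 and 14 lay within their technical SD. Of 21 Myc and ribosome biogenesis genes, 18 were lower, with a median of -0.38. Bright genes as a whole were slightly lower, with a median of -0.11 in the brightest of 4 equal groups of genes. With quantile normalization, another scaling, the median was -0.03 for the respiratory chain genes and -0.21 for the glycolysis and hypoxia genes. The part of signal level in these differences was not tested. Of 14 reference genes, 8 lay below 0 and 6 above it, and the median was -0.06, and Gapdh, also a glycolysis gene, was at 8.26 and 7.83.

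Stress-response and amino acid genes were higher as groups. The list of amino acid and endoplasmic reticulum stress genes holds targets of ATF4, a factor made when translation is slowed by amino acid shortage or protein misfolding. Of its 25 genes, 22 were higher and 17 by more than their technical SD, with a median of 0.37, where 18.9% of all genes were higher by that margin. The pseudokinase gene Trib3 was at 3.51 in control and 5.26 with SH-2251, Atf5 at 2.79 and 4.55, Nupr1 at 1.08 and 2.68, and Ddit3 (CHOP) at 2.48 and 3.78. Of 14 amino acid transporters, 10 were higher and 4 lower, with a median of 0.56. The 3 at least 2-fold higher were Slc6a9 by 1.93, Slc1a4 by 1.51 and Slc7a3 by 1.22. Asns, the asparagine synthetase gene, and Slc7a5, a transporter of large neutral amino acids, are named here after their values were seen. Asns was at 5.19 and 6.02, and Slc7a5 at 1.65 and 2.42.

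After restimulation many of these differences were smaller. Trib3 was at 5.27 in restimulated control cells and 5.29 with SH-2251, Nupr1 at 3.37 and 3.44, and Ddit3 at 3.86 and 3.70. Slc6a9 was at 4.07 and 4.25, and Slc1a4 at 1.15 and 1.06. Of the 17 stress genes that were higher past the technical SD in resting cells, all 17 were brighter in restimulated than in resting control cells, and 15 had a resting SH-2251 signal between those of the controls of the 2 states. Over all genes on the 4 arrays chosen in the same way, these shares were 43.6% and 23.8%. The resting control array enters both the choice of the genes and these counts, so they are a description only. In restimulated cells 9 of the 17 differed by less than their technical SD, 3 were higher and 5 lower, with a median of -0.13. Of 8 transporters that were higher past the technical SD in resting cells, 3 were within it after restimulation, 4 were higher and 1 lower, with a median of 0.22. Atf5 was one that stayed apart, at 4.66 in restimulated control cells and 5.50 with SH-2251. Whether the difference between the states exceeds replicate error was not tested.

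**Figure D3:**
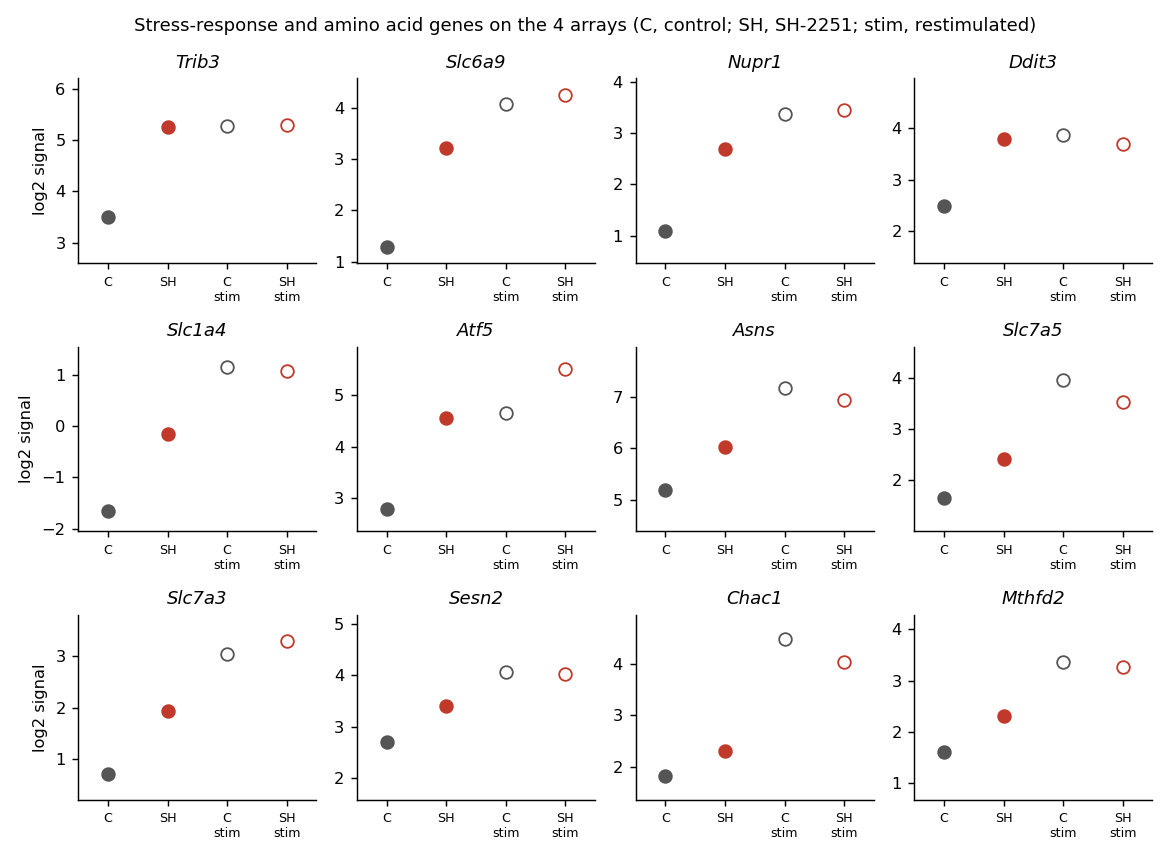
Log2 signal relative to the array's 75th percentile (y axis, the same span in every panel) of 12 stress-response and amino acid genes on the 4 arrays (x axis). Filled points are resting and open points restimulated cells, grey for control and red for SH-2251. The genes drawn are a selection. The list members lower with SH-2251 in resting cells, 3 of 25 stress genes and 4 of 14 transporters, are not drawn. Among the genes drawn, the resting control point is the lowest in every panel. The restimulated points of control and SH-2251 lie close together for Trib3, Nupr1 and Ddit3.

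Genes of the oxidative stress response were partly higher. Of 20 genes of NRF2 and glutathione metabolism, Nqo1 and Gclm were at least 2-fold higher, and the median was 0.17. Nqo1, a quinone reductase, was at -3.38 in control and -1.95 with SH-2251, and Gclm, the regulatory subunit of glutathione synthesis, at -3.01 and -1.89. Ahr, the gene of the aryl hydrocarbon receptor, was at -2.03 and -3.30. Of 35 cell cycle and replication genes, only Cdkn2a was past 2-fold, at -4.42 in control and -2.52 with SH-2251, and the proliferation marker Mki67 differed by 0.21. The transferrin receptor gene Tfrc, a member of the reference list, was at 1.07 and 2.37, a difference of 1.29.

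In the smaller signalling lists, 11.1% of Wnt and Tcf genes and 11.8% of Notch genes were past 2-fold. The shares were 15.8% of prostaglandin and leukotriene genes and 9.52% of genes of extracellular ATP and adenosine. Over all genes compared the share was 5.17%. The members past 2-fold were few in number. Among 18 Wnt and Tcf genes these were Wls and Fzd4 (a bound of 1.27), and among 17 Notch genes they were Hey1 (-1.54), a target of Notch that was dim in both, and the receptor gene Notch3 (1.23). Of 19 prostaglandin and leukotriene genes, the leukotriene receptors Cysltr2 (-1.55) and Ltb4r1 (-1.25) were lower and Alox5ap, which activates 5-lipoxygenase, was higher by 1.11. Of 21 genes of extracellular ATP and adenosine, the receptor genes P2rx7 and P2ry1 stood apart in opposite directions. P2rx7 was at 3.26 in control and 1.98 with SH-2251, and P2ry1 at -2.65 and -0.67. None of 10 RGS genes reached 2-fold.

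**Figure D4:**
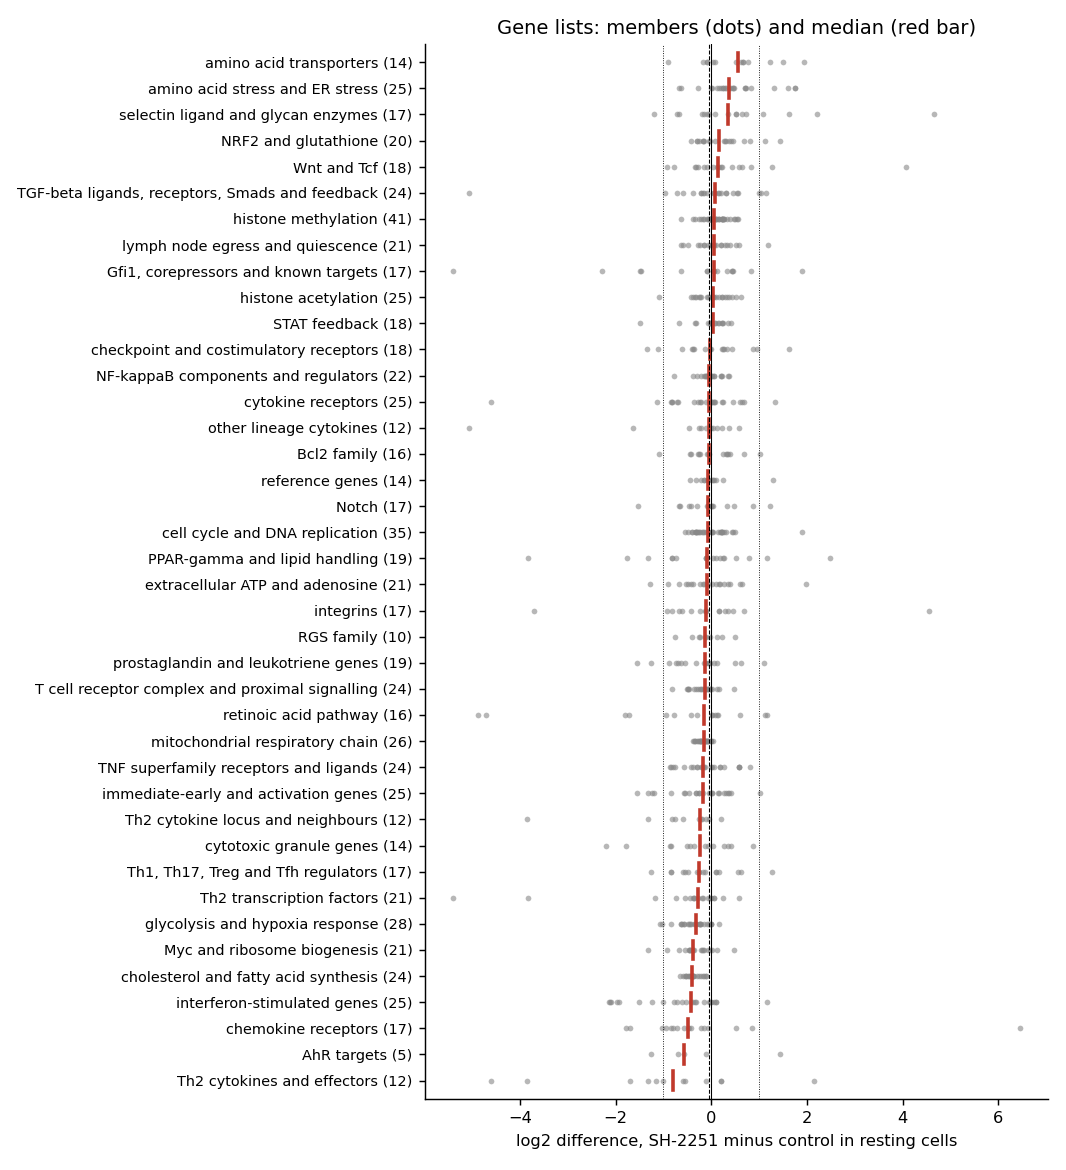
Log2 difference, SH-2251 minus control in resting cells (x axis), of each gene compared (grey dots) in the gene lists (y axis, number compared in brackets; the HIN-200 family and the markers of cell types are left out), with the median of each list as a red bar. The dashed line is the median of all 12681 genes (-0.06), the solid line 0 and the dotted lines 2-fold. Of the lists drawn, amino acid transporters (0.56) are at the top and Th2 cytokines and effectors (-0.81) at the bottom, and most medians lie close to the dashed line.

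The restimulated pair of arrays, which shares no array with the resting pair, compared 12620 genes, of which 351 (2.78%) were lower by 2-fold or more and 334 (2.65%) higher by that margin. The labels do not say whether the restimulated cells were split from the resting cultures. A shared direction in the 2 states therefore cannot be told apart from a difference between shared cultures and is no replication. Of the 368 genes lower in resting cells, 314 could be compared after restimulation, where 300 were lower and 167 at least 2-fold lower. Of the 287 higher genes, 254 could be compared, 237 were higher and 151 at least 2-fold higher. The median of the lower genes was -1.35 in resting and -1.05 in restimulated cells, and that of the higher genes 1.36 and 1.23. The genes were chosen on their resting values, so these medians are a description and no comparison of the states. The difference of Gfi1 was -5.39 in resting cells and -2.49 after restimulation, that of Tgfb3 -5.07 and -3.35, and that of Patl2, an RNA-binding protein gene, -2.93 and -0.68. Pparg and Itgae had similar differences in both, -3.83 and -3.99 for Pparg and 4.54 and 4.89 for Itgae. Ifi211 went from 2.35 in resting to 4.17 in restimulated cells.

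**Figure D5:**
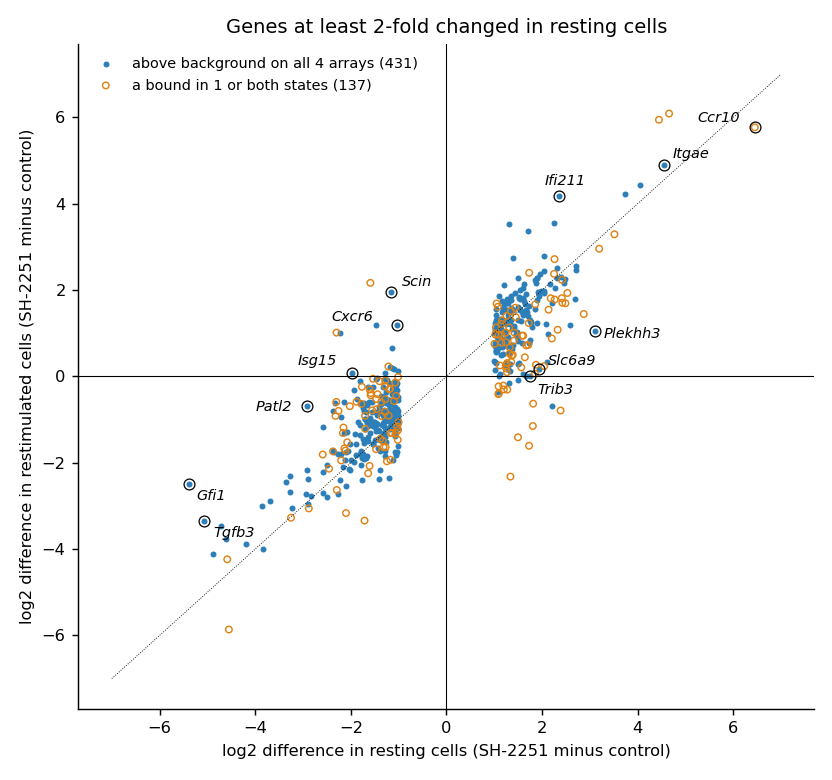
Log2 difference with SH-2251 in resting cells (x axis) and in restimulated cells (y axis) for the 568 genes that differed 2-fold or more in resting cells and could be compared in both states. Filled points are the 431 genes above background on all 4 arrays and open points the 137 with a bound in a state. Most points lie in the lower left and upper right, with Trib3 and Isg15 near 0 on the y axis and Cxcr6 and Scin of opposite sign.

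Some genes differed at least 2-fold in resting cells and by at most 0.25 after restimulation. There were 31 such genes among those above background on all 4 arrays, 20 lower and 11 higher, of 248 and 183 that differed at least 2-fold. Isg15 was the one with the largest decrease, at 0.69 and -1.28 in resting and 2.34 and 2.42 in restimulated cells. Dhrs3 followed, with -1.80 in resting and -0.11 in restimulated cells. On the higher side the first 3 were Slc6a9, Trib3 and Tgm5, with Nupr1, Slc1a4, Ddit3 and Tfrc also among the 11.

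Some genes that follow each other on a chromosome differed together. The compared genes were put in the order of the RefSeq table for GRCm38.p6, which gave 12660 consecutive pairs. Genes that were not compared, and any distance, may lie between the members of a pair. In 38 pairs both members were past 2-fold lower, in 17 past 2-fold higher and in 7 the directions were mixed. Of all genes compared, 2.9% were lower and 2.26% higher by 2-fold or more. How many pairs these shares alone would give was not worked out. The lower pairs include those within the stefin and Gimap runs below. The genes in this paragraph were singled out after their values were seen. The longest run held 7 genes of the stefin A cluster, which encodes inhibitors of cathepsins, between -2.07 for Cstdc5 and -2.89 for Stfa2. Csta2 was at 5.39 in control and 3.28 with SH-2251. The stefin genes are near-identical in parts, so the 7 probes may read the same transcripts and are not independent. A run of 4 genes of the Gimap family, GTPases of lymphocyte survival, was lower too, with Gimap7 at 0.65 and -1.51 and Gimap6 at 4.19 and 2.82. Trpm6 and Anxa1 ended a run of 5 higher genes that began with Nmrk1, which differed by 1.17, and Carnmt1, which differed by 1.10. Plekhh3 and Ccr10 followed each other and were both among the largest increases, and Cdkn2a and Cdkn2b, which share a locus of cell cycle inhibitors, were both higher. Next to Gfi1 in this order, Evi5 gave a bound of -1.03, and next to Tgfb3, Ift43 differed by -1.02.

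Probes for the same gene mostly gave the same direction. Of 47 lower genes with a second probe above background on both arrays, the second probe was lower in all 47 and at least 2-fold lower in 33. Of 46 such higher genes, the second probe was higher in 44 and at least 2-fold higher in 32, and it was lower in Svep1 and Wscd2. Probes of a gene share the RNA, so this checks the probes and not the condition. Dim genes passed 2-fold more often than bright ones. When the genes above background on both arrays were divided into 4 equal groups by signal, 4.14% of the dimmest group were at least 2-fold lower and 3.27% higher, and in the brightest group 1.35% and 0.741%.

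Markers of other cells were checked as sums of signal in units of each array's 75th percentile. The 10 T cell markers summed to 533 in control and 504 with SH-2251. Of 10 B cell markers on the array 9 were above background, with a sum of 43.9 and 38.5, and Pax5 was not above background. Of 6 markers of NK and CD8 T cells, 3 were above background and summed to 0.321 and 0.519, and Cd8a was at -3.53 and -2.07. Of 10 markers of monocytes and macrophages, 7 were above background with sums of 27.6 and 25.7, and Lyz2, Itgam and Tyrobp were not. Dendritic cell markers summed to 0.388 and 0.339 (3 of 7 above background), those of mast cells, basophils and eosinophils to 0.281 and 0.246 (2 of 7) and those of neutrophils to 0.124 and 0.157 (2 of 7). Markers of red cells and platelets summed to 2.44 and 1.49 (3 of 8), with Hbb-bt at 0.98 and -0.55 and Hba-a1 at -1.70 and -0.55. Stromal markers summed to 2.89 and 1.70 (4 of 7), with Pecam1 at 1.14 and 0.12. The part of such cells in the differences above was not tested.

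RefSeq promoters, 300 bases around the start site, were found for 294 of the 368 lower and 230 of the 287 higher genes. CpG dinucleotides, which are dense in the promoters of most widely expressed genes, were counted as the observed over the expected number. The median ratio was 0.367 in the lower, 0.542 in the higher and 0.738 in the other genes compared, and a ratio of at least 0.6 was found in 34.6%, 47.7% and 66.1% of their promoters. Since dim genes pass 2-fold more often, the share was also taken within the dimmer and the brighter genes above background on both arrays, divided at the median signal. It was 37.0% in lower, 50.6% in higher and 59.0% in other genes of the dimmer group, and 40%, 55.2% and 76.0% in the brighter group. The shares are a description of these gene classes, and genes in them are not independent.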

How the data were processed

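RNA (500 ng) of each of 4 samples was hybridised in a single colour to Agilent whole mouse genome arrays on 1 slide, 1 array per condition, and groups were taken from the sample labels. The authors deposited 1 scanner file per array, whose processed intensity had been corrected for background by Feature Extraction (10.7 per the labels, 10.7.3.1 per the file headers). They also deposited a log2 table, made with the Subio Platform per the study's methods. Its values equalled the log2 intensity minus a constant within 0.01 for 99.6% to 99.7% of probes, with a 75th percentile near 0, and it served as an alternative.

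From the intensities, spots marked as outliers and control spots were left out, spots of a probe were averaged on the log2 scale, and the 75th percentile over sample probes was subtracted. Of 41174 probes, 27190 (66.0%) were named through their accession and the RefSeq gene table of GRCm38.p6, and each gene took its brightest probe. The array's own annotation is mm9, so coordinates are given only for RefSeq promoters. Where 1 array was not well above background, the dim array took its own signal or, if higher, that array's lowest signal well above background (-4.78 for control and -4.65 for SH-2251), and the difference is a bound. The technical SD comes from the software's signal error. Probes with 10 spots had a median SD of 0.048 to 0.056 between spots on an array.

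Named are the 15 largest decreases and increases measured on both arrays, the 5 largest bounds each way, Gfi1, Il5, Il4, Il13, Gata3 and Ccr3, and of each of 50 gene lists the members past 2-fold (the 6 largest where there are more, or the 2 largest differences where fewer than 2). Some such genes are not reported here, and other genes are given as context for their list. The comparison, its members and the lists were chosen with earlier results of these data known. Scripts were tested on simulated data first. Alternatives were median centring, quantile normalization, the authors' values, normexp with an offset of 50 on median spot signals (the mean signal is not used here) without spots of uneven background, other filters, the mean of all probes, and other folds. Normexp was run with limma 3.58.1 in R 4.3.3, and all else in Python 3.11.15 (numpy 2.4.6, pandas 2.3.3, matplotlib 3.10.9).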

Additional observations from a re-analysis of the deposited data

Results flagged for a closer look

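The direction of 9 genes was opposite in the 2 states, with at least 2-fold differences in each. Whether the states differ was not tested, and each value comes from 1 pair of arrays. In resting cells Prl2c5 was lower with a bound of -2.30, Kcna4 with a bound of -1.59, Ramp3 by a difference of -1.47, Scin of -1.17 and Cxcr6 of -1.04. Ppp1r14d gave a bound of 1.34, Filip1 a difference of 1.5, Neto1 a bound of 1.73 and Rab39b a bound of 1.81. In restimulated cells the values were 1.01 for Prl2c5, a bound of 2.17 for Kcna4, 1.20 for Ramp3, 1.96 for Scin, 1.20 for Cxcr6, bounds of -2.32 for Ppp1r14d, -1.41 for Filip1 and -1.61 for Neto1, and -1.15 for Rab39b. Of the 9, Ramp3, Scin and Cxcr6 were above background on all 4 arrays. Cxcr6, a chemokine receptor of effector T cells, was at 3.53 in resting control and 2.49 in resting SH-2251-treated cells, and at 4.54 and 5.74 after restimulation. Its resting difference was under 2-fold with median centring (-0.98) and with quantile normalization (-0.99). Ramp3, which modifies peptide hormone receptors, was at 0.50 and -0.96 in resting and at 3.25 and 4.45 in restimulated cells. Scin, an actin-severing protein gene, was dim in resting cells, at -2.41 and -3.57, and brighter after restimulation, at -0.08 and 1.88.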

How the results depend on the processing

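Median centring, quantile normalization and the authors' values left both counts of genes within 1.5 times and moved none of 155 named differences by more than its technical SD. No alternative reversed a named gene that was past 2-fold. Normexp gave 185 lower and 123 higher genes, with 184 and 122 of them shared with the genes reported, and moved 77 named differences. Under it Gfi1 was -4.80, Il5 -3.0 and Wls 3.38. Its offset of 50 draws dim values together, by construction. Without filter or bound, 798 genes were lower and 623 higher. This setting lets in genes below background on both arrays and also removes the bound, and the parts of these were not told apart. A 1.5-fold threshold gave 945 lower and 776 higher genes, and a 3-fold threshold 142 and 103. The mean of all probes gave -2.68 for Il1rl1 and -1.61 for Itga4, and moved 15 named differences in all. Of 119 named genes past 2-fold, 29 were under it with normexp, and 3 each with median centring (Cxcr6, Pecam1 and Slc2a3), quantile normalization (Cxcr6, Hilpda and Slc2a3) and the mean of all probes (B4galt1, Bcl2l11 and Cd8a). Among genes with bounds, normexp gave 4.48 for Ccr10, 2.71 for Gcnt1, 2.49 for Trpm6, -2.99 for Eml1 and -2.79 for Muc13. Each is smaller in size than the bound given. The median of the Th2 effector list was -0.50 under normexp. Signal over background limits dim genes, whose differences are bounds, and the number of arrays, 1 per condition, limits every value. No paired analysis was possible because each condition has a single array.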

Other observations

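Some secreted factors outside the lists were lower in resting cells, named here after their values were seen. Penk, the precursor of enkephalin peptides, was at 6.05 in control and 3.67 in treated cells, a difference of -2.38. Inhba, a subunit of activin, was at 0.57 and -1.76, and Ccl5, a chemokine of effector T cells, at 1.79 and -0.57. Runx2, a Runt family transcription factor, was at -1.48 and -3.63. After restimulation the differences were -0.79 for Penk, -0.62 for Inhba, -1.72 for Ccl5 and -0.59 for Runx2. Metallothioneins, which bind zinc and copper, were lower as well, Mt1 at 5.81 and 4.26 and Mt2 at 6.64 and 5.51. Dgat1, which completes triglyceride synthesis, was at 3.97 and 1.38, and Dgat2, an enzyme of the same step, at 0.21 and -0.93. Higher genes outside the lists included Lmna, which encodes lamin A and C of the nuclear lamina, at 2.41 and 4.37, and Aldh1l2, an enzyme of mitochondrial folate metabolism, at -3.57 and -1.47. Jaml, an adhesion molecule of lymphocytes, was at 0.96 and 3.04.

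Of 13984 probes without a gene name, 5720 could be compared, and 146 (2.55%) were lower and 137 (2.40%) higher by 2-fold or more. The largest differences among those measured on both arrays were -2.35 for A_51_P485312 and -2.23 for A_52_P1020860, and 4.16 for A_52_P549279 and 3.69 for A_51_P501757.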
